A study of Mus musculus with 14 samples.

Results

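The genes described here are 10 genes of striated muscle, read in the liver, where they are near the limit of detection. They were taken from the deposited gene table by their symbols, Ttn, Rbm24, Acta1, Actc1, Ckm, Mb, Tnnt3, Tnnc1, Myh7 and Myl2, and all 10 were found among its 17552 genes. Ttn and Rbm24 were chosen by the very counts given here, 27 and 15 in the control group and 0 with erythrodiol, so these counts are a description and carry no test. The question the set addresses is whether striated muscle genes as a group had the same pattern as Ttn and Rbm24.

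Livers came from male Apoe-deficient mice of strain C57BL/6. The labels give an age of 8 weeks, which, with the weeks of diet given next, is unlikely to be the age at sampling. These mice lack apolipoprotein E, develop fatty liver and were all fed a Western diet. The control group received that diet alone, for 8 weeks by the labels (the methods of the study give a longer time), and the erythrodiol group received it with 10 mg/kg of erythrodiol, a triterpene of the olive. Each group had 7 libraries of poly-A RNA, each made from the RNA of a pool of a few mice, and which mice entered which library was not given. No gene value per library was used here, because each gene had 1 expected count per group, summed over its libraries.

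These sums held 122889032 control and 124686047 erythrodiol counts, where a count is a read pair, and paired counts below give the control before erythrodiol. Mapped pairs per library ranged from 11211542 to 21222096 in the control and from 17389891 to 18264607 with erythrodiol. Apoe, the gene altered in all mice, had 9403 and 8293 counts, and these sums do not show which part of the gene was read. All intervals below are at 95% and cover counting error only, not the spread between mice or libraries. A group at 0 allows up to 3 counts, a limit on the upper side alone. This limit over the whole group was used for any fold change against it. In bulk liver, fewer muscle cells and less RNA per muscle cell cannot be told apart.

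Striated muscle contracts when thick filaments of myosin pull on thin filaments of actin. Titin, the giant protein of Ttn, spans each contractile unit from its border, the Z-disc, to its middle and acts as a spring. On the thin filament the troponin complex senses calcium through its subunit C and moves tropomyosin off the sites where myosin binds. Creatine kinase and myoglobin serve the energy and oxygen supply of the fibre. RBM24 is an RNA-binding protein that promotes the inclusion of muscle exons, and titin itself is a known target of muscle splicing factors such as RBM20. Hepatocytes do not build such filaments, although the liver holds smooth muscle in its vessels and lies against the diaphragm, a striated muscle.

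The promoters of the 4 members that reached 10 counts over both groups are shown, as only these members were compared with all genes below. The stretches are RefSeq sequence of GRCm38.p6, 5′ to 3′ on the strand of the gene, cut so that they end before the gene begins. Capitals mark the motifs searched on both strands. The E-box, CANNTG, is bound by factors such as MyoD. The TATA box was searched as TATAAA. The motif of the TEAD factors was searched as CATTCC. The MEF2 site and the CArG box of serum response factor completed the search. The reference window of Rbm24 leaves 52 bases before the RefSeq gene, so its second E-box is not shown.
Ttn, chr2:76982558-76982797, minus strand: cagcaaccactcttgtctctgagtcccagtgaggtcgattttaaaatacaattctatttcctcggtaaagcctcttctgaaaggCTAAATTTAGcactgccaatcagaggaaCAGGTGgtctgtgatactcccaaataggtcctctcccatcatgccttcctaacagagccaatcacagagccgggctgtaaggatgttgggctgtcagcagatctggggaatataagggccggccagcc
Rbm24, chr13:46418050-46418101, plus strand: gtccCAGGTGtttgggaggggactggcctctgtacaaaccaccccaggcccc
Actc1, chr2:114052876-114053125, minus strand: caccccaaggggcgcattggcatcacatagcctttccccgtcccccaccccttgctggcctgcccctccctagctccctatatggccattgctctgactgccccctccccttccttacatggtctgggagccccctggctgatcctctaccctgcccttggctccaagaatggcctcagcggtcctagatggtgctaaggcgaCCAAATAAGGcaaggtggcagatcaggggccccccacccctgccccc
Tnnc1, chr14:31208062-31208311, plus strand: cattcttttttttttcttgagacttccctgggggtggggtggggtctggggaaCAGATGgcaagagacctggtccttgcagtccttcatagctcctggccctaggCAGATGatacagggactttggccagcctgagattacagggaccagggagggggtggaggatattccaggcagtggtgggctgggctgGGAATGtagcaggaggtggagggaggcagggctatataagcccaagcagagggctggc

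Among the 250 bases before each start, 0.508% of 32851 RefSeq promoters held a MEF2 site, and of the 9 members with a promoter in the reference, Ttn alone did. The CArG box was present in 1.47% of promoters and in those of Acta1 and Actc1. CATTCC was present in 12.6% of promoters and in those of Tnnc1, Acta1 and Myh7. An E-box stood in 66.2% of all promoters and in 8 of the 9 members, the exception being Actc1, so that the E-boxes of Ttn and Rbm24 set them apart from few genes. TATAAA was present in 12.4% of promoters and in those of Acta1 and Myl2. Ttn and Rbm24 thus shared the E-box among the motifs searched. A match is a run of letters and no evidence of binding.

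Ttn lies on chromosome 2 of GRCm38 from 76703980 to 76982557 and overlapped no other RefSeq gene. It had 27 expected counts in the control group (95% interval, 17.8 to 39.3) and 0 with erythrodiol. With 3 counts as the limit for the erythrodiol group and the 27 counts taken as they are, Ttn was at least 9.13-fold lower there. With the counting error of the 27 included, the ratio of erythrodiol to control had an upper limit of 0.144. The 27 counts amount to a mean of 3.86 read pairs per control library, and how they were spread over the 7 libraries is not known. Ttn is the longest gene of the table with 81931 bases, and 27 pairs of 200 bases could have read at most 6.59% of it.

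Rbm24 lies on chromosome 13 from 46418102 to 46431099 and overlapped no other RefSeq gene either. It had 15 counts in the control group (8.40 to 24.7) and 0 with erythrodiol, a mean of 2.14 read pairs per control library. Rbm24 was at least 5.07-fold lower with erythrodiol at the limit of 3 counts, and with the error of the 15 counts included its ratio had an upper limit of 0.275. With 3224 bases, Rbm24 is a gene of ordinary length, unlike Ttn. Both genes thus had few counts in the control group and none with erythrodiol. The study also assayed Ttn and Rbm24 by RT-qPCR in the individual mice and marked neither as significantly changed. It reported poor agreement of RT-qPCR with sequencing until transcripts without counts in many samples were left out.

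**Figure D1:**
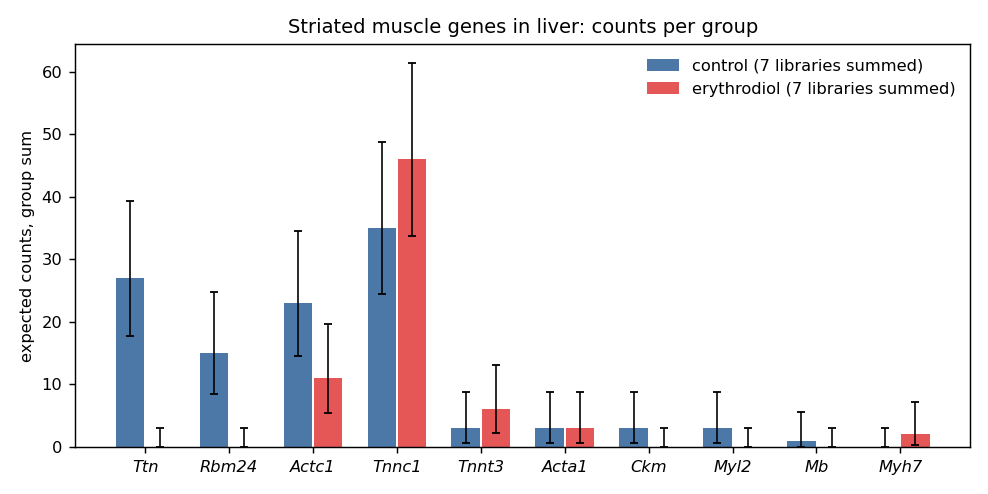
Expected counts of the 10 striated muscle genes on the vertical axis, summed over the 7 libraries of the control group (blue) and of the erythrodiol group (red), with 95% counting intervals (for a group at 0, up to 3 counts). Ttn and Rbm24 stand at 27 and 15 against 0, Tnnc1 at 35 against 46.

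Among the genes of the thin filament, Tnnc1, the calcium sensor of slow and cardiac muscle, had the most counts of the set. Tnnc1, on chromosome 14 from 31208312 to 31211729, had 35 control (24.4 to 48.7) and 46 erythrodiol counts (33.7 to 61.4). Its ratio of erythrodiol to control was 1.30 with an interval from 0.817 to 2.07, which includes 1. The best-measured member was thus read in both groups, unlike Ttn and Rbm24.

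Actc1, the actin of heart muscle, on chromosome 2 from 114047282 to 114052875, had 23 control (14.6 to 34.5) and 11 erythrodiol counts (5.49 to 19.7). Its ratio was 0.471 and the interval, from 0.207 to 1.01, reached 1. Acta1, the actin of skeletal muscle, on chromosome 8 from 123891758 to 123894775, had 3 control and 2.99 erythrodiol counts, too few for a ratio. Per kilobase the heart isoform lay above the skeletal isoform in the control, at 0.128 (0.0812 to 0.192) against 0.0165 (0.00340 to 0.0482) counts per 1000000. With erythrodiol their intervals overlapped, at 0.0604 (0.0301 to 0.108) against 0.0162 (0.00333 to 0.0474). Adult skeletal muscle uses mainly Acta1. Tnnt3, the troponin T of fast fibres, on chromosome 7 from 142498771 to 142516213, had 3 control and 6 erythrodiol counts, a ratio of 1.97 with an interval from 0.421 to 12.2.

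Because the actins are close relatives, reads could be shared between them. The coding sequences of Acta1 and Actc1 are 1134 bases each and identical at 977 positions, or 86.2%. Their longest identical run was 29 bases, shorter than a read of 100 bases. Over the GENCODE M21 transcripts, 0 of the 100-base windows of Acta1, Actc1, Rbm24, Tnnt3, Tnnc1 and Myl2 occurred in a transcript of another gene. For Ttn, 14 of 120096 windows did. The shares were 5.71% for Ckm, 9.54% for Myh7, part of it with the neighbouring heart myosin Myh6, and 21.1% for Mb. The 27 counts of Ttn and 15 of Rbm24 were whole numbers, as RSEM gives where no pair is split between genes.

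Of the thick filament, Myh7, the myosin heavy chain of slow fibres and heart, on chromosome 14 from 54970684 to 54994626, had 0 control and 2 erythrodiol counts. Myl2, the regulatory light chain that goes with it, on chromosome 5 from 122092724 to 122113473, had 3 and 0 counts. Ckm, the creatine kinase of muscle, on chromosome 7 from 19411094 to 19421583, had 3 and 0 counts as well. Mb, myoglobin, on chromosome 15 from 77015487 to 77050668, had 1 and 0 counts. For these 4 genes both groups were at or under 3 counts, and no fold change is given. Myh7, Myl2, Ckm, Mb and Tnnt3 overlap other RefSeq genes in genomic position. By the windows described above, Myl2 and Tnnt3 shared no stretch of read length with a transcript of another gene. Ckm, Myh7 and Mb shared part of theirs, and without a stated strand the reads of those shared parts cannot be told apart. Acta1, Ckm, Mb and Myh7, which are among the most abundant transcripts of muscle, had low or absent counts in the control sum, where the much longer Ttn had 27. Per kilobase and 1000000 counts in the control, Ttn stood at 0.00268, below Acta1 at 0.0165, Ckm at 0.0173 and Mb at 0.0083. The interval of Ttn overlapped that of each of them.

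Levels were compared as counts per kilobase of gene and per 1000000 counts of the group, since a long gene collects more reads at the same level. On this scale Tnnc1 was highest, with 0.405 in the control and 0.525 with erythrodiol, and Actc1 followed with 0.128 and 0.0604. The intervals of these 2 genes did not overlap in either group. Next came Tnnt3 at 0.0238 and 0.0470, whose control interval lay below that of Actc1 while their erythrodiol intervals overlapped. By the mean of the groups, Myl2, Rbm24, Acta1, Ckm and Mb followed in this order, and each overlapped its neighbour in both groups. Rbm24 stood at 0.0379 in the control and under 0.00746 with erythrodiol. Ttn, at 0.00268 in the control, had a lower mean level than all of these despite its 27 counts, and its level with erythrodiol was under 0.000294. Myh7, with a level under 0.00403 in the control and 0.00265 with erythrodiol (0.000321 to 0.00957), had nearly the same mean as Ttn and was not ranked against it. With erythrodiol, 2 counts of Myh7 stood against 0 of Ttn, too few to set the genes apart. In the control their intervals overlapped.

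**Figure D2:**
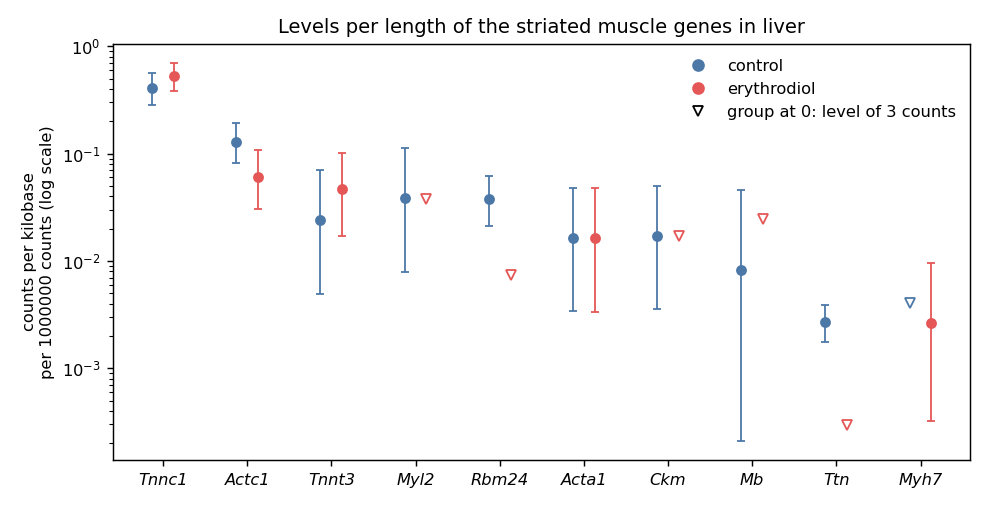
Counts per kilobase and per 1000000 counts on a log axis for the 10 genes in order of their mean level, control in blue and erythrodiol in red, with 95% counting intervals. Open triangles give the level of 3 counts where a group had 0, and Tnnc1 at 0.405 lies 151-fold above Ttn at 0.00268 in the control.

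In the control, the level per kilobase of Tnnc1 was 151-fold that of Ttn. Neb, which encodes nebulin, the giant ruler of the thin filament, was 184-fold above Ttn on the same scale. Alb, the albumin of hepatocytes, was 95773-fold above Tnnc1. The best-measured member was thus a trace transcript in this tissue.

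The list of 10 held 113 control and 67.99 erythrodiol counts, a ratio of 0.593 (0.432 to 0.808). Without Ttn alone the ratio was 0.779 (0.558 to 1.08), and without Rbm24 alone 0.684 (0.494 to 0.941). Without this pair, the other 8 members held 71 and 67.99 counts, a ratio of 0.944 (0.667 to 1.34). Of these, 46 erythrodiol counts were those of Tnnc1, and the 7 members left without it held 36 and 21.99 counts, a ratio of 0.602 (0.337 to 1.05). These sums were computed after the counts were seen. The lower sum of the 10 genes therefore held the 42 control counts of the pair that was chosen for them, and the interval of the other 8 included 1.

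For a comparison with all genes, 0.5 counts were added to each group, and genes reaching 10 counts over both groups were kept. A gene was counted as lower or higher when its ratio, scaled by the total counts, was past 2-fold. Of the 10 members 4 had that many counts, and 3 of them, Ttn, Rbm24 and Actc1, were at least 2-fold lower and 0 were higher. Of the 15502 genes kept in the whole table, 1.69% were at least 2-fold lower and 1.35% higher. The members' count is printed beside this share without a reading, since the choice of the members used the same contrast. Among the 1465 genes with 10 to 49 counts, where Ttn, Rbm24 and Actc1 belong, 10.7% were at least 2-fold lower and 10.9% higher, so that a 2-fold difference is far more common at such counts. The median log2 ratio was 0.15 over the 15502 genes and 0.16 over those with at least 100 counts, and log2 ratios below are to be read against this shift.

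**Figure D3:**
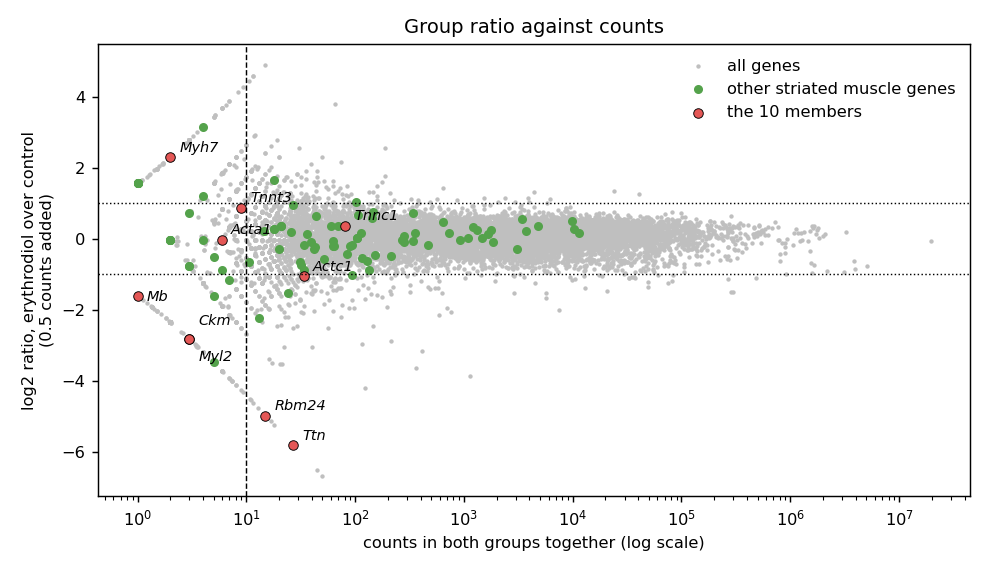
Log2 ratio of erythrodiol to control (0.5 counts added) against the counts of both groups on a log axis, for all genes in grey, other striated muscle genes in green and the 10 members in red. Dotted lines mark 2-fold, the dashed line 10 counts. The cloud widens towards low counts, and Ttn at -5.80 and Rbm24 at -4.98 lie on its lower edge, which is formed by genes at 0 with erythrodiol.

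Besides Ttn and Rbm24, 8 other genes had at least 10 control counts and 0 with erythrodiol. In the other direction, 4 genes had at least 10 counts with erythrodiol and 0 in the control. The 3 whose log2 ratio was nearest to that of Ttn, among 1257 genes within 2-fold of its total count, were Gm21992 (18.11 counts in the control), LOC102637269 (16.88) and Zfp965 (44.42). For Rbm24, among 1218 genes, they were LOC102637269, Tmem81 (12.93) and Gm21992. Likeness here rests on 2 pooled values per gene. Of the 10 genes at 0 with erythrodiol, 3 had whole counts, namely Ttn, Rbm24 and Rnase2a. Of all genes with 10 to 49 counts, 81.3% had whole counts in each group. Of the genes most like them, none was a muscle gene of the lists described next. With so few such genes this is no result about muscle.

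Beyond the members, 108 genes of striated muscle in 6 lists were examined, of which 92 were in the table. They covered the thick filament, the thin filament, titin's partners and the Z-disc, excitation and calcium, energy supply and transcription factors. Of the 92, 16 had at most 3 counts over both groups and 36 had at least 100. Genes typical of striated muscle thus differed widely in counts. Neb, Csrp3, Smyd1, Tnnt1 and Tnnt2, given below, were among those with at least 100. The genes named next were picked for their low counts. The myosin heavy chains Myh1 and Myh3 had 0 and 1 counts, Myh6 had 1 and 0, and Tnni1, the troponin I of slow fibres, had 0 and 1. Actn2, the actinin of the Z-disc, had 2 counts in each group, Tcap, the cap of titin, had 4 and 2, and Atp2a1, the calcium pump of fast fibres, had 9 and 12.

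Of the 67 other muscle genes with at least 10 counts, 3 were at least 2-fold lower with erythrodiol, 2 higher and 62 within 2-fold. Their median log2 ratio was 0.03, with 31 genes below 0 and 36 above. As shares, 4.48% were lower and 2.99% higher, beside 1.69% and 1.35% of all genes. Among the 21 of them with 10 to 49 counts, 2 were lower and 1 higher, shares of 9.52% and 4.76% beside 10.7% and 10.9% of all genes with such counts. Of the 92, 4 were at 0 with erythrodiol, beside 601 of all 17552 genes, and none of these 4 had more than 5 counts in the control. At least 10 control counts with 0 under erythrodiol were found in only 10 of the 17552 genes. That none of the 92 had this pattern is therefore no result about muscle genes.

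The 5 other muscle genes past 2-fold came from 4 lists and differed in direction. Myh7b, a slow myosin heavy chain, had 11 and 2 counts, a ratio of 0.179 (0.0193 to 0.821). Cacna1s, the voltage sensor of skeletal muscle, had 18 and 6 counts, a ratio of 0.329 (0.107 to 0.864). Ankrd2, a stretch-responsive partner of titin, had 62 and 31 counts, a ratio of 0.493 (0.309 to 0.770). In the other direction, Lmod3, which nucleates thin filaments, had 4 and 14 counts, a ratio of 3.45 (1.08 to 14.4). Myom3, a protein of the M-band, had 33 and 69 counts, a ratio of 2.06 (1.34 to 3.22). All 5 intervals excluded 1 and none lay wholly past 2-fold. The 5 were picked by these same counts, so intervals that exclude 1 are no test. Relative to the median of genes with at least 100 counts, the log2 ratio of Myom3 was 0.87, within 2-fold, while Mylpf and Casq2, the calsequestrin of heart, were past 2-fold lower at -1.03 each.

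In the thick filament list, the genes of highest level were Smyd1, a methyltransferase needed to assemble myosin, with 542 and 557 counts, and the light chains Mylpf and Myl4. Mylpf, the light chain of fast fibres, had 87 control and 48 erythrodiol counts, a ratio of 0.544 (0.374 to 0.782). Myl4, the light chain of the atria, had 77 and 51, a ratio of 0.653 (0.449 to 0.942). These light chains were lower within 2-fold (Mylpf past it on the median scaling just given), while the list's sum was 1171.53 control and 1178.04 erythrodiol counts, a ratio of 0.991 (0.913 to 1.08).

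In the thin filament list, the tropomyosins Tpm1 and Tpm2, which many cell types use, and Neb had the highest levels. Tpm1 had 5381 and 6132 counts, a ratio of 1.12 (1.08 to 1.17), and Tpm2 had 794 and 880, a ratio of 1.09 (0.991 to 1.20). Neb, the other giant of the sarcomere with 22688 bases, had 1372 control and 2045 erythrodiol counts, a ratio of 1.47 (1.37 to 1.57). Nebulin and titin thus differed in direction and in the number of counts. Of the troponins beside Tnnc1, Tnnt2 of heart had 51 and 53 counts and Tnnt1 of slow fibres 53 and 60, while the troponins I of fast fibres and heart had fewer counts. Tnni2 had 20 and 12, a ratio of 0.591 (0.264 to 1.27), and Tnni3 had 19 and 12, a ratio of 0.622 (0.276 to 1.35).

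Among titin's partners and the Z-disc, Csrp3, a muscle LIM protein, had 1659 and 1387 counts, a ratio of 0.824 (0.767 to 0.885). Fhl1, another LIM protein, had 957 and 913, a ratio of 0.940 (0.858 to 1.03), and Des, the desmin of muscle and stellate cells, had 722 and 751, a ratio of 1.03 (0.924 to 1.14). These 3 genes were named for their high level, so their counts in both groups are no contrast with Ttn. The list's sum was 4662 control and 4506.98 erythrodiol counts, a ratio of 0.953 (0.914 to 0.993).

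Of excitation and calcium, Jph1, which joins the sarcoplasmic reticulum to the cell membrane, had 127 and 215 counts, a ratio of 1.67 (1.33 to 2.09). Srl, sarcalumenin, had 145 and 139 counts, a ratio of 0.945 (0.743 to 1.20), and Stac3, a partner of Cacna1s, had 49 and 44, a ratio of 0.885 (0.575 to 1.36). In the energy list, Pfkm, a phosphofructokinase, had 1705.77 and 2032 counts, a ratio of 1.17 (1.10 to 1.25). Eno3, the enolase of muscle, had 536 and 680 counts, a ratio of 1.25 (1.11 to 1.40). Cox7a1, a respiratory subunit of heart and muscle, had 125 and 91 counts, a ratio of 0.718 (0.542 to 0.948). Of the transcription factors, Mef2a had 4630 and 5652 counts, a ratio of 1.20 (1.16 to 1.25). Mef2d had 4038 and 5839 counts, a ratio of 1.43 (1.37 to 1.48). Gata4, a factor of heart and other organs, had 2110 and 2734 counts, a ratio of 1.28 (1.21 to 1.35). These lists held genes on either side of 1, and the log2 ratios of Pfkm, 0.23, and Mef2a, 0.27, were near the 0.16 of well-counted genes.

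**Figure D4:**
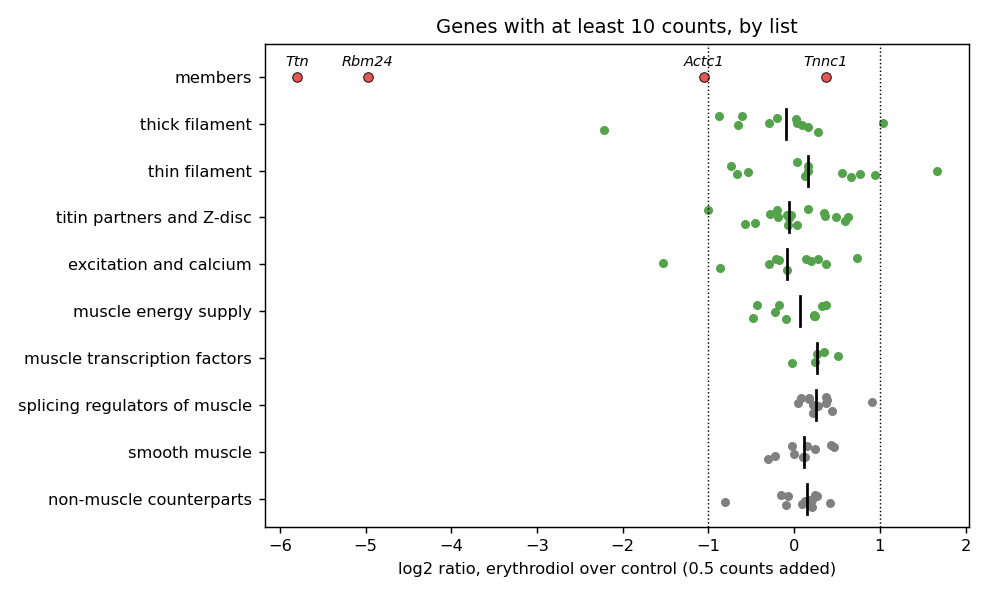
Log2 ratio of erythrodiol to control (0.5 counts added) on the horizontal axis for genes with at least 10 counts, 1 row per list, with the list's median as a black bar for all lists but the members. Dotted lines mark 2-fold. Ttn at -5.80 and Rbm24 at -4.98 lie left of all other genes plotted, of which the lowest is Myh7b at -2.22.

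The sum of the 92 other muscle genes was 29553.11 control and 35156.16 erythrodiol counts, a ratio of 1.17 (1.15 to 1.19). Tpm1, Mef2a and Mef2d made up 48.9% of these counts, and without them the ratio was 1.11 (1.09 to 1.14). As a log2 ratio this is 0.16, beside a median of 0.16 over genes with at least 100 counts. The 56 genes under 100 counts, chosen after the counts were seen, held 723.12 and 648.96 counts, a ratio of 0.885 (0.794 to 0.985). The same sum over all genes under 100 counts was not computed, so this ratio is given without a reading. A wider list, added after the data were seen, took the 151 genes that the table annotates to a part of the myofibril. Of these 131 had at least 10 counts, of which 3 (2.29%) were at least 2-fold lower and 4 (3.05%) higher, beside 1.69% and 1.35% of all genes, with a median log2 ratio of 0.19. Of its 18 genes with 10 to 49 counts, 11.1% were lower and 11.1% higher, beside 10.7% and 10.9%. Of the members 6 carry that annotation, and neither Ttn nor Rbm24 is among them.

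The 12 other regulators of muscle splicing were all within 2-fold, as were 15030 of the 15502 genes kept in the whole table. The median log2 ratio of the 12 was 0.25, with a range from 0.04 to 0.91. Ptbp1, the polypyrimidine tract protein that represses neural and muscle exons, had 12897.85 and 16908.39 counts, a ratio of 1.29 (1.26 to 1.32). Celf1, which opposes the muscleblind proteins, had 11394 and 15137 counts, a ratio of 1.31 (1.28 to 1.34). Rbm20, named here after its counts were seen because it acts on titin, had 307 and 363 counts, a ratio of 1.17 (0.998 to 1.36).

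Smooth muscle genes, which the vessel walls of the liver express, were within 2-fold in all 10 cases tested, with a median log2 ratio of 0.12. Of all genes kept, 15030 of 15502 were within 2-fold too. Mylk, the kinase of the myosin light chain, had 10300 and 14073 counts, a ratio of 1.35 (1.31 to 1.38), and Tagln, transgelin, had 1433 and 1430, a ratio of 0.984 (0.913 to 1.06). The 12 non-muscle counterparts, such as the actin Actb with a ratio of 1.07 (1.06 to 1.08), were within 2-fold as well. The lowest of them was Myl6, the light chain of non-muscle myosin, with 28257.20 and 16348.98 counts, a ratio of 0.570 (0.559 to 0.581).

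Markers of other tissues that a piece of liver can carry were read beside the muscle genes. The 4 mesothelial markers were within 2-fold, with summed counts of 957 and 1008, and so were the 10 hepatocyte genes and most genes of the whole table. Of the cardiac hormones Nppa had 1 count in each group, and Corin, the protease that activates its product, had 104 and 84. The 5 adipocyte markers summed to 461 control and 197 erythrodiol counts, a ratio of 0.421 (0.355 to 0.499), with Cfd, the complement factor of fat cells, at 416 and 160 and Retn, resistin, at 10 and 4. Without Cfd, which held most of these counts, the sums were 45 and 37, a ratio of 0.810 (0.510 to 1.28), with Adipoq, adiponectin, at 28 and 25 and Plin1, the perilipin of fat droplets, at 5 and 7. The 5 erythroid genes had a ratio of 0.735 (0.730 to 0.741), and Hbb-bt, a beta globin, was past 2-fold at 0.491 (0.475 to 0.506), while Alas2, the erythroid enzyme of heme synthesis, stood at 1.03 (1.01 to 1.06). Of 9 pancreatic acinar genes tested, Amy2a5 and Cpb1 were at least 2-fold lower and Ctrb1, Cela3b and Cpa1 at least 2-fold higher. The intervals of Cpb1 (11 and 3 counts) and Cela3b (3 and 11) included 1. Those of Amy2a5 (123.84 and 22.54), Ctrb1 (8 and 42) and Cpa1 (2 and 15) did not. Of all genes with 10 to 49 counts, where Cpb1, Cela3b and Cpa1 belong, 10.7% were lower and 10.9% higher. Some adipocyte and erythroid markers, chiefly Cfd and the globins, were thus lower in the group where Ttn and Rbm24 were at 0 and others were not, and their part in these counts was not tested.

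Transcripts that the authors added to the annotation give a measure that did not enter the choice of members. None of the 10 members had such a transcript, as is common at their depth, since 2.98% of genes under 10 counts and 6.42% of genes with 10 to 49 counts had any, against 28.5% of all genes. Of the 92 other muscle genes, 15 had 32 added transcripts between them. Myh7b, with 13 counts over both groups, had 3 of 34 to 36 exons, and Cacna1s, with 24 counts, had 2 of 29 to 30 exons. Among the splicing regulators, 8 of 12 had added transcripts, with 18 for Mbnl1, a muscleblind protein. The filtered splicing events between the groups numbered 16, and 0 of them lay in a member or in another gene of the muscle lists.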

How the data were processed

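The authors sequenced poly-A RNA of the liver, paired-end, from 7 pools of Apoe-deficient males per group. Groups came from the sample labels. The authors deposited counts of clean reads per library and the percent of them mapped to transcripts, from which read pairs per library were computed. For genes, the authors deposited 1 RSEM expected count per group, without normalization, after mapping with Bowtie2 to RefSeq and added transcripts. Versions were not given in the sources used here. These sums are 100.0% of the mapped pairs of a group to 4 digits, so they are sums over libraries and each gene has no replicates and no test was made. The authors' own ratios and p-values per gene were not used.

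Ratios were scaled by total counts. Exact Poisson and conditional binomial intervals at 95% cover counting error only. Limits for a group at 0 used 3 counts, and calls used 2-fold, 0.5 added counts and a minimum of 10. The computation was tested on simulated data. Members and lists were chosen with earlier results of these data known. Named genes were the members, muscle genes past 2-fold, the 3 of highest level per muscle list and the 2 of highest level in the splicing, smooth muscle and non-muscle lists, genes past 2-fold in the marker lists and the 3 most like Ttn and Rbm24. Further genes were singled out after their values were seen. Gene positions and promoters came from RefSeq, transcripts from GENCODE M21. Alternatives were 2 other scalings (the median of genes with at least 100 counts, and the 500 genes nearest in length), 1 added count, other minimums, a fold limit of 1.5 and the interval. Software was scipy 1.17.1, pandas 2.3.3 and numpy 2.4.6 under Python 3.11.15, and figures were drawn with matplotlib 3.10.9.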

Additional observations from a re-analysis of the deposited data

How the results depend on the processing

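No paired analysis was possible because each gene had 1 value per group, and for the same reason no library could be left out. Both other scalings and 1 added count were tried on the 5 members with more than 3 counts in a group. Their log2 ratios, and that of the summed counts of all 10, stayed within the counting intervals. For Ttn and Rbm24 the interval has no lower end, so staying within it says little. With 1 count added, Ttn moved from -5.80 to -4.83 and Rbm24 from -4.98 to -4.02. Without a minimum count, 6 members were at least 2-fold lower and 1 higher. At 100 counts 0 members were lower, because no member had so many. The median log2 ratio of the 4 members with at least 10 counts, -3.01, is set by Ttn and Rbm24, which were chosen for this contrast, and was -0.34 without them. It became -2.52 with 1 count added and, over all 10 without a minimum, -1.33. Of the other striated muscle genes, the count at least 2-fold lower was 3 and became 5 with the median of genes set to 0, 9 without a minimum, 0 at 100 counts, 0 when the whole interval had to be past 2-fold and 9 at a fold limit of 1.5. Their count higher was 2 and became 1 with the median set to 0, 1 relative to genes of like length, 10 without a minimum, 1 at 100 counts, 0 by the interval and 8 at 1.5. Their median log2 ratio of 0.03 became -0.13 with the median set to 0, -0.054 relative to genes of like length, -0.00127 without a minimum and 0.14 at 100 counts, so that its sign depends on the scaling. With few counts per member, depth limits what can be seen, and a change within the intervals was not detectable.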

Other observations

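Ttn is 1 of 9 genes of the table longer than 20000 bases, and the others had counts in both groups. Zbtb20, a transcription factor, had 12356 control and 20120 erythrodiol counts, a ratio of 1.60 (1.57 to 1.64). Syne2, the giant nesprin that ties the nucleus to the cytoskeleton, had a ratio of 1.54 (1.47 to 1.60), and Eppk1, epiplakin, one of 1.28 (1.22 to 1.34). Ccdc168 had 13 and 61 counts, a ratio of 4.62 (2.51 to 9.18), the highest of the 9. Muc19, a mucin, had 9 and 3 counts, a ratio of 0.329 with an interval from 0.0572 to 1.32 that included 1. These genes were chosen by length after the counts were seen.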
